A study of Mus musculus with 12 samples.

Results

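CpG and IFNα, each given alone, were compared in mouse splenic follicular (FO) B cells: the 3 samples stimulated with the TLR9 agonist CpG were set against the 3 samples stimulated with IFNα, over every gene. These are 6 of the 12 samples of the series, and 9431 of the 22561 genes in the count table had enough counts to be tested. TLR9 is an endosomal receptor for DNA with unmethylated CpG motifs, and in B cells it signals through MyD88 to NF-κB and MAP kinases, which drive growth, survival and cytokine genes. IFNα binds the receptor made of IFNAR1 and IFNAR2, and JAK kinases and STAT proteins then turn on interferon-stimulated genes, many of them antiviral, through an interferon-stimulated response element (ISRE) in their promoters. The study used the stimuli alone and together to ask how IFNα alters the response of FO B cells to CpG, so the comparison between the single stimuli shows what separates the programs that were combined.

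The cells came from the spleens of C57BL6 mice aged 10 weeks and were sorted on surface markers that included B220hi, AA4.1-, CD23+ and CD21mid. The IFNα group received 0.1 µg/mL IFNα and the CpG group 1 µg/mL of the oligonucleotide CpG ODN1826, both for 12 h; the groups of unstimulated cells and of cells given both agents at the same concentrations, also 3 samples each, are used below as reference levels. The labels do not say whether the unstimulated cells were cultured, nor whether replicates came from separate mice, so p-values measure the spread between these samples, which may be technical. Each stimulus was used at a single concentration and time, so the kind of stimulus and its strength cannot be told apart, and in bulk RNA fewer cells of a type and less RNA per cell cannot be told apart either. Values are 3′ UMI counts divided by library size (CPM) scaled by TMM, which makes them relative to the other genes of the same sample, and values in parentheses after a gene are log2 fold changes, CpG minus IFNα. The 6 samples held 1067324 to 1985810 counts, and their pairwise root-mean-square log2 distances were 0.398 to 0.512 within a stimulus and 1.5 to 1.59 between the stimuli. By a chi-square on the counts, IFNα sample 2 differed most within its group. Its values per degree of freedom were 4.501 and 5.998 against the other IFNα samples, and 2.202 between those. This measure grows with depth, and IFNα sample 2 was the deepest IFNα library, at 1689570 counts. By the log2 distance it did not stand apart. It was 0.441 from IFNα sample 3 and 0.512 from sample 1, against 0.457 between samples 1 and 3. IFNα sample 2 had the highest shares of rRNA (9.02%) and mitochondrial counts (8.52%) of the 6. Over the 6 samples rRNA took 4.46 to 9.02% of counts with IFNα and 2.23 to 4.13% with CpG, and mitochondrial genes 5.91 to 8.52% and 3.29 to 4.85%. Without IFNα sample 2, 1882 genes were higher with CpG and 2248 lower.

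CpG and IFNα left the cells with widely different transcriptomes. Antiviral interferon-stimulated genes and MHC class II genes were lower with CpG than with IFNα almost without exception, as were most genes of the B-cell receptor and of homing, whereas all ribosome assembly genes tested, most genes of nucleotide synthesis and S phase, and the cytokines Il6 and Ccl3 were higher. DEGs were genes with an adjusted p below 0.1 in edgeR's quasi-likelihood test that differed more than 2-fold; 1826 genes were higher with CpG, 19.4% of those tested, and 2330 were lower, 24.7%, the shares against which the counts of each gene list are read. The differences were not symmetric in size: the median log2 fold change (CpG minus IFNα) was 1.57 among the higher genes and −1.95 among the lower ones, beside −0.03 over all genes tested. Past 3 on the log2 scale there were 122 higher and 582 lower genes, and past 5 there were 21 and 170. The higher genes took 8.92 to 9.97% of all counts in the IFNα samples and 31.4 to 32.3% in the CpG samples, and the lower genes took 34.7 to 35.9% with IFNα and 7.31 to 7.82% with CpG. The 3 CpG values and the 3 IFNα values did not overlap for 4037 of the 4156 DEGs, but the same held for 71.7% of all genes tested. A gene passes the count filter if 1 group expresses it, so genes present with only 1 stimulus enter the test and necessarily differ.

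**Figure D1:**
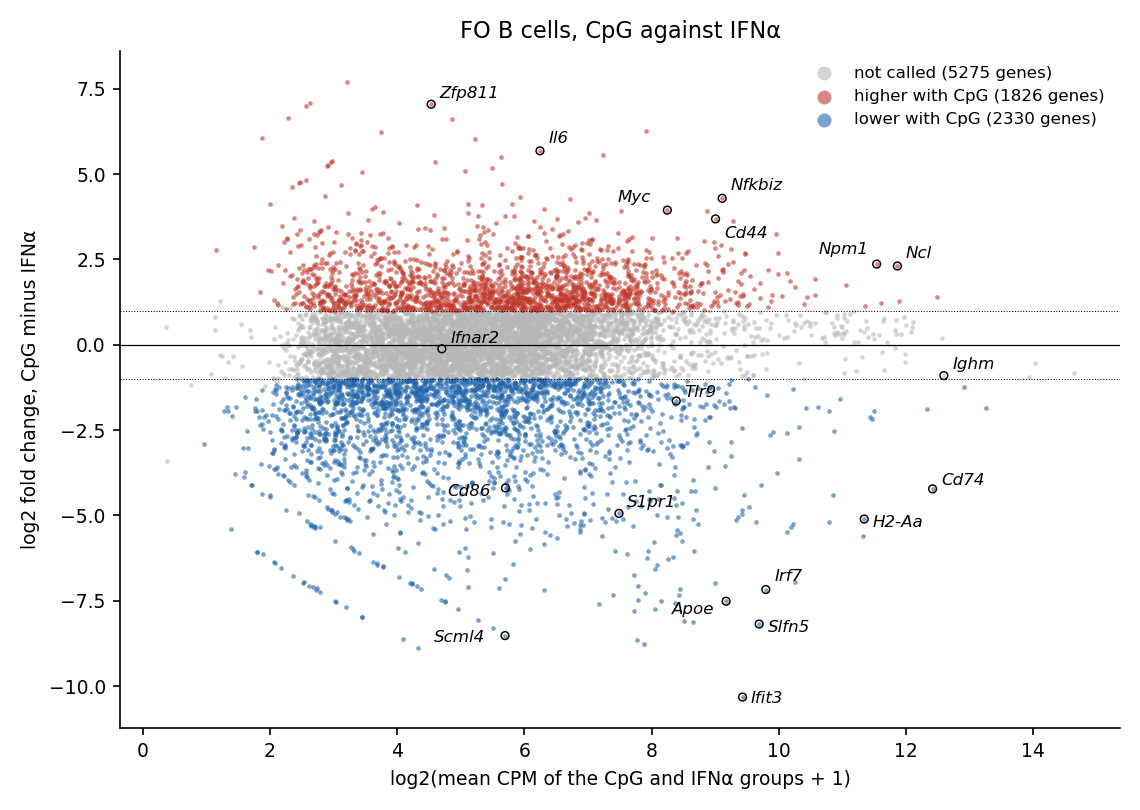
Log2 fold change (CpG minus IFNα) against log2(mean CPM of the CpG and IFNα groups + 1) for the 9431 genes tested, 1 point a gene; red points are the 1826 genes higher with CpG, blue the 2330 genes lower, gray the 5275 not called, and the dotted lines mark log2 fold changes of 1 and −1. The lower genes reach further from 0 than the higher ones, down to Ifit3 at −10.32, and they include abundant transcripts such as Cd74.

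The antiviral interferon-stimulated genes had the largest median difference of the gene lists examined. Of the 44 tested, 43 were lower with CpG and none was higher, with a median log2 fold change of −5.68. Ifit3, which binds viral RNA together with its relatives, is shown first because its difference was the largest of the genes named by fold. Its CPM was 2.46, 0 and 0.499 in the CpG samples and 1469, 1243 and 1416 in the IFNα samples (log2 fold change −10.32, SE 0.70, edgeR adjusted p = 1.02e-25). Isg15, a ubiquitin-like modifier, stood at 7.37, 6.42 and 8.99 CPM with CpG and 661, 462 and 687 with IFNα (log2 fold change −6.27, SE 0.29). Neither gene's stimulus groups came near each other. Irf7, the transcription factor that amplifies type I interferon responses, was at 15.96, 9.27 and 10.98 CPM with CpG and 1937, 1559.7 and 1790.3 with IFNα (log2 fold change −7.17, SE 0.22, edgeR adjusted p = 1.02e-25). Slfn5, a Schlafen-family gene, was at 7.98, 4.28 and 4.49 CPM with CpG and 1904, 1372 and 1658 with IFNα (log2 fold change −8.18, SE 0.29). Among the DEGs of this list the smallest difference was that of Ly6e, a surface protein, at −1.93, and the member that was not called was Ifi27 (−0.304), whose values overlapped between the stimuli. For 42 of the 43 lower members the unstimulated mean lay between the means of the 2 stimuli: the medians of the list against unstimulated cells were 3.88 for IFNα and −1.93 for CpG, both measured against the same 3 unstimulated samples. Summed over the 44 genes, the level was 24974 to 30553 CPM with IFNα, 1844 to 1987 CPM with CpG and 5276 to 5753 CPM in unstimulated cells.

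Parp12 and Tgtp1, both named for their fold change, had no count in any CpG sample. Parp12, an ADP-ribosyltransferase with antiviral activity, had 147 counts over the IFNα samples, which is at least 62.5-fold lower with CpG against a floor of 3 counts over the group. Tgtp1, an interferon-inducible GTPase, had 121 counts, at least 51.5-fold lower. These are bounds, since a level of 0 gives no ratio. Scml4, a polycomb-related gene, had 1 count with CpG and 408 with IFNα, a ratio of 521 with an exact 95% counting interval of 92.9 to 20611, and BC147527 had 1 and 345 counts, a ratio of 440.2 (78.5 to 17436). These intervals cover counting error only. Ifit3 and Ifit3b, Tgtp1 and its neighbor, and the Slfn and BC147527 families have close copies, so reads may have been split or dropped between copies and single values of these genes are uncertain.

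Stretches of promoter that hold the core of an ISRE are shown for the genes named by p or fold whose RefSeq promoter has one upstream of the start, since this element is the known site of interferon-activated factors. They are 30 bases each, from RefSeq promoters on GRCm38.p6, written 5′ to 3′ on the strand of the gene, and the capitals mark GAAANNGAAA or its reverse complement.
Ifit3, chr19:34583363-34583392 (+), positions −156 to −147 from the start: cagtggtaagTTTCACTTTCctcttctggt
Ifit3, chr19:34583397-34583426 (+), positions −122 to −113 from the start: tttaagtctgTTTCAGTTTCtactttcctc
Ifi213, chr1:173599326-173599355 (-), positions −73 to −64 from the start: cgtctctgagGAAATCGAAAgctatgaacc
Ifit1bl1, chr19:34602053-34602082 (-), positions −104 to −95 from the start: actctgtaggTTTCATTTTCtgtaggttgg
BC147527, chr13:120300272-120300301 (+), positions −110 to −101 from the start: cagcagccaaGAAAAAGAAActaatgcaga
Tgtp1, chr11:48992304-48992333 (-), positions −77 to −68 from the start: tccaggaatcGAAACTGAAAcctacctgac
Slfn5, chr11:82951937-82951966 (+), positions −155 to −146 from the start: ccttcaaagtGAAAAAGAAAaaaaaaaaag
In GENCODE M21 annotation of the same build, the printed Ifit3, Ifi213, Ifit1bl1 and BC147527 stretches lie in no gene, the Tgtp1 stretch lies in an intron shared by the Tgtp1 and Olfr56 models, and the Slfn5 stretch lies in an intron of longer Slfn5 and Slfn5os models. Ifit3b carries the same pair of stretches as Ifit3, at positions −188 to −179 and −154 to −145 from its own start, and Ifit1bl1 has another stretch at positions −23 to −14 from the start of a further transcript, in an intron of Ifit1bl1, which is not printed.

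Most genes that sense nucleic acids or relay interferon signals were also lower with CpG. Of the 23 genes tested in this list, 17 were lower, 1 was higher and the median was −3.08. The sensors Ddx58 (−6.06), which encodes RIG-I, and Ifih1 (−5.26), which encodes MDA5, the signal transducer Stat2 (−6.26), its partner Irf9 (−3.12) and the factor Irf1 (−5.68) were all lower. Socs1, an inhibitor of JAK kinases, was lower (−3.45) and Socs3, another inhibitor, was the member that was higher (1.22), at 3.68, 6.42 and 4.49 CPM with CpG and 0, 3.04 and 2.29 with IFNα, levels of a few counts (edgeR adjusted p = 0.081); it lost the call without CpG sample 2 or 3 or IFNα sample 1 or 3, with log2 fold changes between 0.83 and 1.34. Irf3 gave 0.02, with a 95% interval of −0.24 to 0.27. Of the interferon receptor genes, Ifnar1 was lower with CpG and Ifnar2 was not called. Ifnar1 was at 23.9, 26.4 and 26.96 CPM with CpG and 43.4, 88.8 and 46.6 with IFNα (log2 fold change −1.25, SE 0.22, edgeR adjusted p = 7.01e-06), and the call depends on the second IFNα sample: the 88.8 CPM sample stood above the rest of its group, and without it the log2 fold change was −0.79. Ifnar2 was at 24.6, 23.5 and 23.96 CPM with CpG and 24.2, 24.9 and 28.999 with IFNα (−0.12, 95% interval −0.53 to 0.29). No interferon gene was tested: Ifng, Ifnk and Ifna4 were in the table, and over the 6 samples the highest count of any of them was 7, for Ifng in 1 IFNα sample.

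RNA of the receptor for CpG was lower with CpG than with IFNα at 12 h, as was that of several genes of its pathway. The study's flow cytometry found TLR9 protein raised about equally by every stimulus a day after stimulation. A day later the protein was still high only with IFNα alone. Tlr9, at chr9:106222598-106226883 (+) in the M21 annotation, was at 144, 189.6 and 151 CPM in the CpG samples, 497, 441 and 578 in the IFNα samples and 209, 226 and 226 in unstimulated cells (CpG minus IFNα −1.65, SE 0.12, edgeR adjusted p = 7.33e-14). The IFNα values were the highest of the 3 groups and did not overlap with the CpG values. Of the 22 Toll-like receptor pathway genes tested, 13 were lower with CpG, none was higher, 9 were not called, and the median was −1.19. The endosomal receptors Tlr7 (−4.66) and Tlr3 (−4.33), the trafficking protein gene Unc93b1 (−1.32), which TLR9 needs to reach endosomes, the adaptor Myd88 (−1.16) and the kinase Irak4 (−1.22) were among the lower genes. Irak1 (0.64), Traf6 (−0.49) and Map3k7 (0.79), which act downstream of the adaptor, did not pass the thresholds.

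Antigen presentation separated the stimuli in both classes. All 14 MHC class II presentation genes were lower with CpG, with a median of −4.58. H2-Aa, an MHC class II alpha chain, was at 150.4, 147 and 141 CPM with CpG, 5458, 4422 and 5254 with IFNα and 6233, 6309.8 and 5678 in unstimulated cells (CpG minus IFNα −5.11, SE 0.12, edgeR adjusted p = 6.01e-25). Cd74, the invariant chain, was at 705, 488 and 472 CPM with CpG, 11936, 8941 and 10246 with IFNα and 15727, 14538 and 13577 in unstimulated cells. For both genes the IFNα samples were far nearer to the unstimulated ones than the CpG samples were. Ciita, the transactivator that class II genes depend on, was at 31.3, 20.7 and 16.97 CPM with CpG and 531, 587 and 448 with IFNα (−4.52). H2-Eb1 (−5.21), H2-Ab1 (−4.42) and the peptide editors H2-DMa (−4.73) and H2-Oa (−5.27) were lower by similar amounts, while the proteases Ctss (−2.45) and Lgmn (−2.25) and the reductase Ifi30 (−2.11) were lower by less. The median of the list against unstimulated cells was −4.87 for CpG and −0.42 for IFNα, and for 12 of the 14 genes the unstimulated mean was above that of both stimuli.

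Most MHC class I genes were lower with CpG as well. Of the 23 class I and peptide-loading genes tested, 18 were lower with CpG, 1 was higher and the median was −2.12. H2-K1, a classical class I heavy chain, was at 966, 1096 and 1058 CPM with CpG, 4533, 4165 and 4849 with IFNα and 2096, 2329 and 2512 in unstimulated cells (−2.12, SE 0.11). B2m, the class I light chain, was at 2169, 2157 and 2238 CPM with CpG, 8853, 7302 and 8229.6 with IFNα and 4353, 4315 and 4689 in unstimulated cells (−1.89). In both genes the unstimulated values lay between those of the stimuli, as the unstimulated mean did for all 18 lower members. The peptide transporter Tap1 (−2.97), the immunoproteasome subunit Psmb9 (−3.095), the class I transactivator Nlrc5 (−3.08) and the nonclassical genes H2-T22 (−4.03) and H2-T23 (−4.11) were lower by more. The trimming peptidase Erap1 was higher with CpG (1.09). H2 genes are closely related in sequence, so their values carry the uncertainty of shared reads.

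Most genes of the B-cell receptor were lower with CpG. Of the 26 B-cell receptor and coreceptor genes tested, 19 were lower, 1 was higher and the median was −1.52. Cd79a, a signaling chain of the receptor, was at 41.7, 38.5 and 38.9 CPM with CpG and 774, 736 and 836 with IFNα (−4.296, SE 0.14), and Cd79b, its partner, differed by −3.36. Ms4a1 (−2.59), which encodes CD20, Cd22 (−3.005), an inhibitory lectin, and Fcer2a (−3.499), which encodes the CD23 used in the sort, were lower. Fcer2a was at 1118, 1454 and 1109 CPM in unstimulated cells, above the 303, 196 and 233 CPM of the IFNα samples. Prkcb, a kinase that links the receptor to NF-κB, was the higher member (1.104). The heavy chain constant gene Ighm was at 4339, 4402 and 4165 CPM with CpG and 7969, 7591 and 8608 with IFNα, a log2 fold change of −0.91 that missed the fold threshold.

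Of the 19 transcription factors of B-cell identity tested, 12 were lower with CpG, none was higher, and the median was −1.48. Klf2, a factor of quiescence and trafficking, differed by −4.27, Id3, an inhibitor of E proteins, by −3.44, Ets1 by −2.85 and Bach2, a repressor of plasma cell differentiation, by −1.85. Bcl6, the germinal center factor, was just past the threshold at −1.05. It was short of the threshold without CpG sample 1, IFNα sample 1 or IFNα sample 3 (−0.92, −0.98 and −0.86). Bcl6 also lost the call with scaling by library size only, no count filter and the test against a fold change of 2. The B-lineage factors Ebf1 (−0.72), Foxo1 (−0.85) and Ikzf1 (−0.82) were short of the threshold. Tcf3, which encodes the E2A proteins, gave −0.07 with a 95% interval of −0.30 to 0.16, and Irf8 gave 0.42.

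Homing and tissue-retention genes included some of the widest differences outside the interferon genes. Of 17 tested, 13 were lower with CpG, 2 were higher and the median was −3.64. S1pr1, a sphingosine-1-phosphate receptor that guides exit from tissue, was at 9.21, 17.1 and 8.49 CPM with CpG and 323, 387 and 325 with IFNα (−4.94, SE 0.32, edgeR adjusted p = 1.05e-17). The related receptor S1pr4 (−5.13), the oxysterol receptor Gpr183 (−4.83), the integrin chains Itgb7 (−5.41) and Itga4 (−3.31) and the chemokine receptors Cxcr4 (−3.64), Ccr6 (−3.23) and Cxcr5 (−1.75) were lower. Ccr7, which directs cells toward T-cell zones, was higher with CpG, at 1372, 1362 and 1149.7 CPM against 381, 372 and 358 with IFNα (1.805). The unstimulated values of Ccr7, 1081, 649 and 769 CPM, lay between them.

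**Figure D2:**
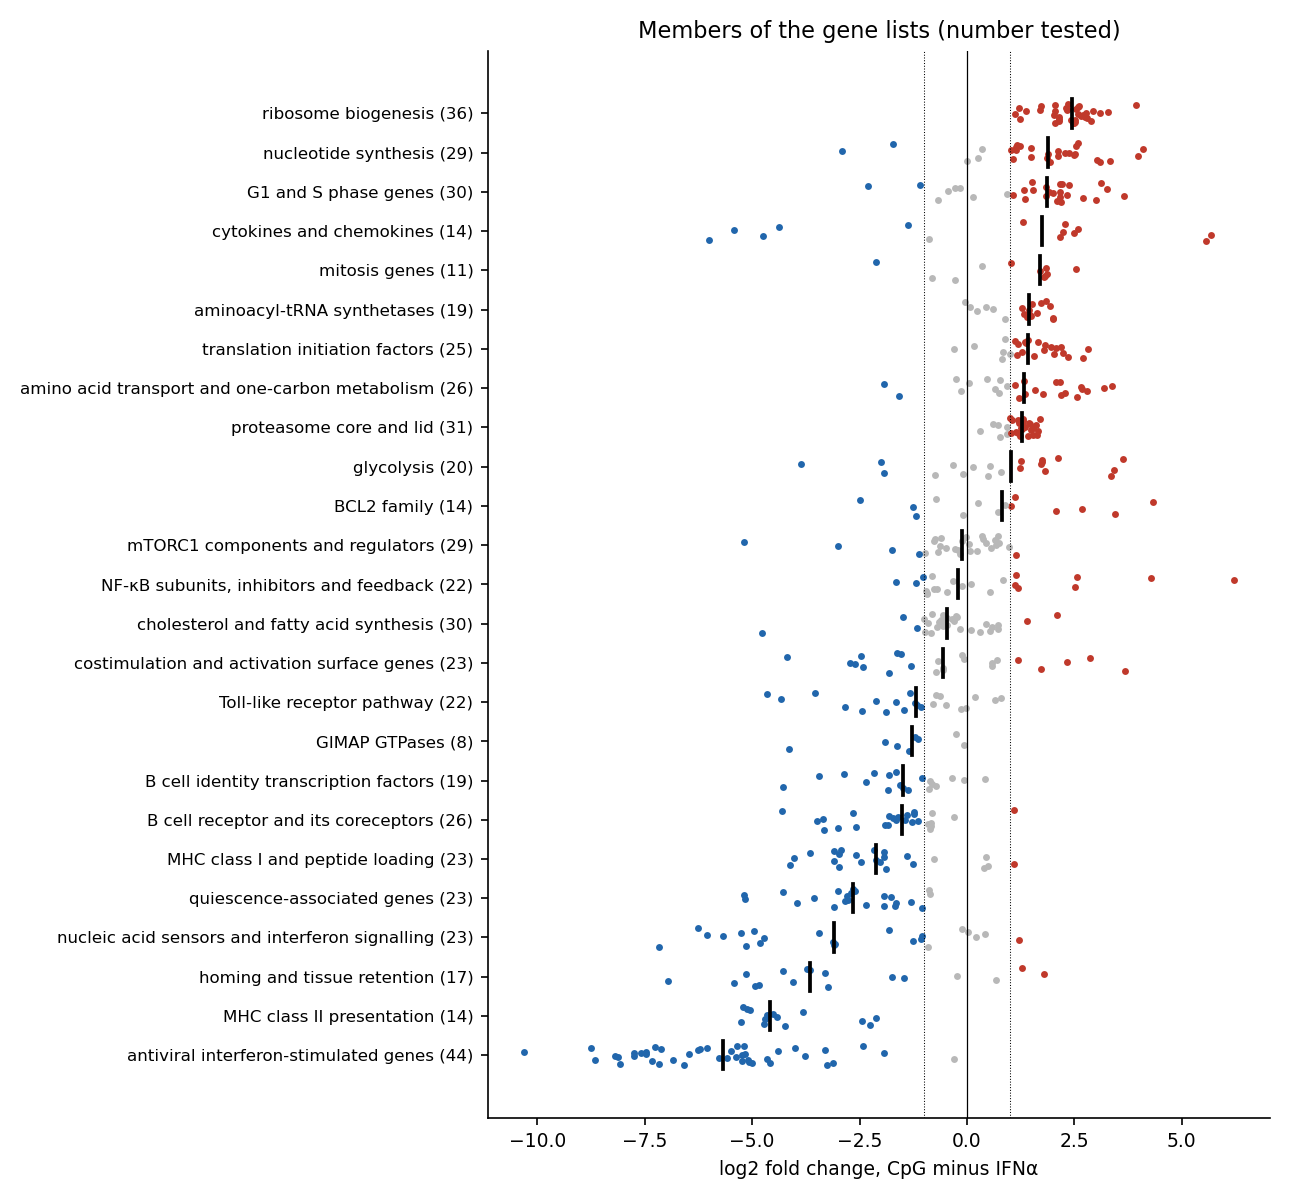
Log2 fold changes (CpG minus IFNα) of the tested members of 25 gene lists, 1 point a gene, ordered by list median (black bar); red points are higher with CpG, blue lower and gray not called, the dotted lines mark 1 and −1, and the height of a point within its row has no meaning. The list medians run from −5.68 for the antiviral interferon-stimulated genes to 2.45 for ribosome biogenesis, and the cytokine and NF-κB lists spread to both sides.

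The NF-κB list had 7 of 22 genes higher with CpG, 31.8% beside 19.4% of all genes tested. Its 3 lower genes were 13.6%, beside 24.7% of all genes, and the median was −0.22. For 6 of the 7 higher genes the unstimulated mean lay between those of the stimuli, and for 1 it was below both. Nfkbiz, a nuclear IκB protein that is needed for Il6 transcription, was at 1142, 1101 and 903 CPM with CpG and 56.5, 54.1 and 50.4 with IFNα (4.29, SE 0.15, edgeR adjusted p = 1.32e-22). Tnip3 had 127 counts with CpG and 1 with IFNα, a ratio of 99.5 with an exact 95% counting interval of 17.5 to 3962, and like Tnfaip3 (2.57), which encodes A20, it restrains NF-κB. Traf1 (2.52), Nfkbib (1.19), Zc3h12a (1.14) and Nfkb1 (1.13) were the other higher members. Birc2 (−1.65), Nfkbie (−1.17) and Cyld (−1.03), a deubiquitinase, were lower, Cyld only narrowly: without CpG sample 3, IFNα sample 1 or IFNα sample 2 it stood at −0.86, −0.96 and −0.96. Without either of those IFNα samples the list had 2 lower genes, and without IFNα sample 3 it had 5. Cyld also lost the call with scaling by library size only, no count filter and the test against a fold change of 2. The list had 2, 2 and 1 lower genes in these settings. The median was −0.103 without IFNα sample 1. The subunit genes Rela (−0.32), Rel (−0.92) and Relb (−0.77) did not pass the thresholds.

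Cytokine and chemokine genes went both ways, with 8 of the 14 tested higher with CpG (57.1%) and 5 lower (35.7%). These shares stood beside 19.4% and 24.7% of all genes, and the median was 1.74. That median was 0.706 over the 26 genes left by no count filter and 1.06 over the 13 left by thinned counts, while the counts were 9 and 7 higher and 5 lower in each. Il6, a B-cell growth and differentiation cytokine, was at 179.9, 109 and 151 CPM with CpG and 5.04, 1.22 and 3.05 with IFNα (5.68, SE 0.51, edgeR adjusted p = 1.27e-17). Ccl3, an inflammatory chemokine, was at 327, 308 and 248 CPM with CpG and 9.08, 4.26 and 6.11 with IFNα (5.57, SE 0.39). The CpG values of both genes were far above the IFNα values. Ccl4 (2.59), Tnf (2.49), Mif (2.17), Il10 (2.24), Ebi3 (2.28) and Lta (1.31) were the other higher genes, and Il10, Ebi3 and Lta were at 7.49 to 14.3 CPM in the CpG samples. Cxcl10 (−4.74), an interferon-induced chemokine, Il16 (−4.39), Tgfb1 (−1.37) and Ltb (−5.43) were lower. Tnfsf10, which encodes TRAIL, had 1 count with CpG and 70 with IFNα, a ratio of 89.3 with an exact 95% counting interval of 15.5 to 3577. Ltb, which encodes lymphotoxin beta, was at 19.03, 15.7 and 11.5 CPM with CpG, 707, 552 and 709 with IFNα and 909.99, 951 and 1102 in unstimulated cells.
The 30 bases around the κB motif of the Il6 promoter (GGGANTTTCC, capitals) are printed because Il6 was the gene named by fold whose promoter held it; they lie outside any GENCODE M21 gene.
Il6, chr5:30013060-30013089 (+), positions −44 to −35 from the start: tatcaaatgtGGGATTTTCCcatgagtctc

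Costimulatory and activation genes went both ways: 5 of 23 were higher with CpG, 9 were lower and the median was −0.57. The share higher, 21.7%, was near the 19.4% of all genes tested, and the share lower was 39.1% beside 24.7%. Cd44, an adhesion receptor of activated lymphocytes, was at 948, 959 and 947 CPM with CpG and 77.7, 73.6 and 70.97 with IFNα (3.69, SE 0.13, edgeR adjusted p = 2.1e-22). Tfrc (2.87), the transferrin receptor, Cd83 (1.72), Cd80 (2.33) and Il2ra (1.19) were higher as well. Cd86, the costimulatory ligand paired with Cd80, went the other way, at 6.75, 5.702 and 3.49 CPM with CpG, 109.98, 96.7 and 83.9 with IFNα and 87.4, 58.8 and 62.7 in unstimulated cells (−4.196, SE 0.31). Its CpG values were the lowest of the 3 groups. Icosl (−2.61), Cd38 (−2.47), Il4ra (−2.41), Slamf1 (−2.71) and the BAFF receptor gene Tnfrsf13c (−1.63) were also lower, and Cd40 (0.58) was not called. Cd69 was at 62.6, 60.6 and 50.9 CPM with CpG, 176, 165 and 162 with IFNα and 548, 442 and 456 in unstimulated cells, so its lower level with CpG (−1.53) was a difference between values that were both below the unstimulated ones.

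The genes of ribosome assembly were higher with CpG without exception. All 36 tested passed, with log2 fold changes from 1.12 to 3.93 and a median of 2.45. Npm1, which encodes nucleophosmin, a nucleolar chaperone, was at 4944, 4921 and 5054 CPM with CpG and 1168, 831 and 907 with IFNα (2.36, SE 0.13). Rrp1b, a nucleolar regulator of rRNA processing, was at 334, 323 and 367 CPM with CpG and 25.2, 23.1 and 19.1 with IFNα (3.93, SE 0.17, edgeR adjusted p = 2.34e-21). Mrto4, a factor for the large ribosomal subunit, was at 352, 315 and 296 CPM with CpG and 29.3, 33.4 and 35.1 with IFNα (3.28). The groups were apart in each of these genes by several times the spread of the replicates. The list's median against unstimulated cells was 2.50 for CpG and 0.01 for IFNα, against the same 3 unstimulated samples, and its summed level was 25142 to 25474 CPM with CpG and 4517 to 5910 with IFNα. Ribosomal protein genes took 16.6 to 18.6% of the counts of the CpG samples and 10.5 to 13.1% of the IFNα samples.

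Myc, the transcription factor that drives growth genes, was at 572, 610.2 and 520.2 CPM with CpG, 48.4, 26.8 and 38.9 with IFNα and 225, 143 and 168 in unstimulated cells (CpG minus IFNα 3.94, SE 0.18, edgeR adjusted p = 7.09e-20). The unstimulated values lay between those of the stimuli. Its obligate partner Max gave 0.00 with a 95% interval of −0.25 to 0.26, and of the 9 genes of the Myc network tested, Myc was the 1 that was higher while Mxd4 (−3.203), Mlxip (−1.26) and Mnt (−1.02), which oppose or parallel Myc, were lower. Mnt lost the call without CpG sample 1 or IFNα sample 3 (−0.80 and −0.91), which left 2 lower genes. Without any other single sample the network had 4. Mnt also lost the call with scaling by library size only, no count filter, thinned counts and the test against a fold change of 2. Other biosynthetic lists leaned the same way as ribosome assembly. Nucleotide synthesis had 24 genes higher and 2 lower of 29, with a median of 1.88. Tyms (4.102), which makes thymidylate, Ctps (3.97), which makes CTP, and Cad (3.32), which starts pyrimidine synthesis, differed most, and Nme1, a nucleoside diphosphate kinase, was at 872, 749 and 793 CPM with CpG and 117, 84.5 and 97.7 with IFNα (3.03). The exceptions were Dck (−2.91), the salvage kinase for deoxycytidine, and Ctps2 (−1.73).

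Protein synthesis genes were higher in most cases: 19 of 25 translation initiation factors (median 1.43), among them Eif4a1 (2.69) and Eif4e (2.25), and 13 of 19 aminoacyl-tRNA synthetases (median 1.45), with none lower in either list. Of 26 genes of amino acid transport and one-carbon metabolism, 16 were higher and 2 lower (median 1.33): Shmt1 (3.19), Asns (3.38), Psat1 (2.57) and the transporter Slc7a5 (2.16) were higher, and the stress genes Ddit3 (−1.58) and Ddit4 (−1.93) were lower. Srm, which makes spermidine, was at 926, 867 and 832 CPM with CpG and 68.6, 39.5 and 68.7 with IFNα (3.93, SE 0.17). Glycolysis had 10 genes higher and 3 lower of 20 (median 1.02), with Hk2 (3.44) and the lactate transporter Slc16a1 (3.63) higher and Hk1 (−1.99) lower. The proteasome core and lid had 25 of 31 higher (median 1.28), whereas the immunoproteasome subunit Psmb9 was lower, as given above. Cholesterol and fatty acid synthesis did not separate the stimuli in this way, with 2 higher, 3 lower and 25 not called of 30 (median −0.46), shares below those of all genes, nor did mTORC1 components and regulators, with 1 higher, 4 lower and 24 not called of 29 (median −0.12). With single libraries left out these counts ran from 3 to 5 lower for the lipid list, 5 without CpG sample 1 or IFNα sample 2, and from 1 to 2 higher for the mTORC1 list, 2 without CpG sample 1 or 2 or IFNα sample 1 or 2; with no count filter 3 of the mTORC1 list were higher, and with the samples of the 2 stimuli alone 5 of the lipid list were lower. Fasn (2.09) and Akt1 (1.14) were higher in these lists, and Abca1 (−4.77), a cholesterol exporter, and Pik3ip1 (−5.198), an inhibitor of PI3 kinase, were lower.

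Most genes of G1 and S phase were higher with CpG at 12 h. Of 30 G1 and S phase genes tested, 22 were higher and 2 were lower, with a median of 1.87. Cdk6, a kinase of early G1, was at 597, 659 and 561 CPM with CpG and 54.5, 68.1 and 83.2 with IFNα (3.13, SE 0.14), and Cdk4, the related kinase, at 381, 367 and 384 and 67.6, 79.05 and 74.8 CPM (2.34). The replication genes Mcm10 (3.65), Gins2 (3.26) and Cdc6 (2.998) were higher, Ccnd2 by 1.54 and E2f1 by 2.71, while E2f2 (−2.31) and Ccne1 (−1.09) were lower. Ccne1, a cyclin of S phase entry, was not called without CpG sample 1 (−0.86). Only 11 of 24 mitosis genes had enough counts to be tested, of which 7 were higher and 1 lower (median 1.69). This count moved with the genes tested: it was 13 higher of 24 with no count filter and 4 higher of 7 with thinned counts. Mki67, a marker of cycling cells, was at 6.75, 19.96 and 35.4 CPM with CpG and 3.03, 6.69 and 6.87 with IFNα (1.87), with the lowest CpG value within the range of the IFNα values. Of 23 quiescence-associated genes tested, 21 were lower with CpG and none was higher (median −2.65). Cdkn1b, the inhibitor p27, was at 66.3, 86.2 and 81.4 CPM with CpG and 450.01, 448 and 515 with IFNα (−2.59), and Btg2 (−3.95), Txnip (−2.84), Cdkn2d (−5.17) and Klf3 (−2.77) were lower as well.

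The BCL2 family had 6 of 14 genes higher, 42.9% beside 19.4% of all genes tested. Its 3 lower genes were 21.4%, near the 24.7% of all genes, and the median was 0.81. The prosurvival genes Bcl2a1d (4.34), Bcl2a1b (3.44), Bcl2l1 (2.69) and Bcl2 (1.04) were higher, as were the proapoptotic Bax (2.07) and Bcl2l11 (1.12), and Mcl1 (−1.25), also prosurvival, was lower with the proapoptotic Bmf (−2.496) and Bad (−1.18). Bcl2 fell just short of the fold threshold without IFNα sample 1 (0.996), and it also lost the call under upper quartile scaling, the filter of 10 counts, the fit to the 6 samples, thinned counts and the test against a fold change of 2. Bcl2a1d and Bcl2a1b are near-identical copies, so the division of counts between them is uncertain. Of 18 p53 targets, 8 were higher (44.4%) and 3 lower (16.7%), with a median of 0.69. Rps27l (2.68) and Cdkn1a (2.0) were higher and Trp53inp1 (−3.53) was lower. Regulators of plasma cells and secretion had 6 higher and 3 lower of 22 (median 0.18), shares of 27.3% and 13.6% beside 19.4% and 24.7% of all genes, and the median was −0.00863 without IFNα sample 2 and 0.118 without IFNα sample 3. The chaperone genes Sdf2l1 (2.06) and Hyou1 (1.39) were higher, and Sdc1, which encodes the plasma cell marker CD138, was at 1.23, 2.14 and 1.997 CPM with CpG and 29.3, 20.7 and 31.3 with IFNα (−3.84). GIMAP GTPases, which act in lymphocyte survival, were lower in 6 of 8 (median −1.28).

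Several of the strongest differences were in genes outside these groups. Zfp811, a zinc finger gene, had 221 counts with CpG and 1 with IFNα, a ratio of 173 with an exact 95% counting interval of 30.8 to 6872, and Cebpd, a C/EBP transcription factor, had 291 and 2 counts, a ratio of 114 (31.3 to 946). Rnd3 (6.04), an atypical small GTPase, Utf1 (5.49), a chromatin factor of pluripotent cells, Wfdc21 (5.37) and Slc7a3 (5.17), a cationic amino acid transporter, were higher by fold as well, at 39.4 to 103 CPM in the CpG samples and 0 to 3.03 CPM in the IFNα samples. Ybx3 (3.63), an RNA-binding cold shock protein, C1qbp (2.93), a mitochondrial matrix protein, and Pa2g4 (2.995), a growth regulator, were higher too, at 856 to 1269 CPM in the CpG samples and 73.0 to 146 CPM in the IFNα samples.

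Apoe (chr7:19696109-19699188, - strand), which encodes apolipoprotein E, had the smallest p of all genes lower with CpG (edgeR adjusted p = 3.25e-26). It was at 7.37, 6.42 and 4.99 CPM with CpG, 1214, 1098 and 1122 with IFNα, 193, 217 and 223 in unstimulated cells and 6.0002, 8.62 and 5.65 with CpG and IFNα together (−7.52 between the single stimuli, SE 0.25). The IFNα samples were above the unstimulated ones, and both groups that received CpG were far below them. Shisa5, an endoplasmic reticulum protein, was at 115, 102 and 90.4 CPM with CpG and 5345, 4539 and 5153 with IFNα (−5.62, SE 0.12). Ifi27l2a (−6.96), Rtp4 (−7.74), Samhd1 (−5.21), a dNTP hydrolase that restricts viruses, and Sp100 (−5.06), a nuclear body protein, were also among the genes named by p; all 4 are known as interferon-inducible genes.

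A difference near 0 could be bounded for few genes. The 95% interval of the log2 fold change lay wholly within 0.5 of 0 for 612 genes, 6.49% of those tested, although 5275 were not called; 2964 genes had an adjusted p under 0.1 with a smaller fold change than the threshold. Among the list members inside that bound were Irf3, Max and Tcf3, given above, and Otulin (−0.12, −0.37 to 0.13), a deubiquitinase of linear ubiquitin chains.

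Levels in the other groups placed these differences. Among the 1826 genes higher with CpG, the median log2 fold change against unstimulated cells was 1.54 with CpG and −0.07 with IFNα, and among the 2330 lower genes it was −1.91 with CpG and 0.06 with IFNα, all against the same 3 unstimulated samples. The unstimulated mean was between those of the stimuli for 986 of the higher genes, below both for 807 and above both for 33; for the lower genes it was between them for 1219, above both for 1072 and below both for 39. In cells given both agents, the mean level on the log2(CPM + 1) scale was nearer to that with CpG alone than to that with IFNα alone for 1763 of the higher genes (96.5%) and for 2112 of the lower genes (90.6%). The antiviral list departed from this, with 7 of its 43 lower genes nearer to CpG, as did the MHC class I list with 6 of 18 and the list of sensors and interferon signaling with 7 of 17. The antiviral list's summed level with both agents, 10042 to 10566 CPM, was below the 24974 to 30553 CPM of IFNα alone. In contrast, all 14 MHC class II genes and all 36 ribosome assembly genes were nearer to CpG. Isg15 was at 578, 483 and 574 CPM with both agents, within the range of IFNα alone, whereas Slfn5 was at 96.5, 83.8 and 90.5 CPM and Ifit1bl1 at 10.9, 12.4 and 14.9 CPM, below the 1904, 1372 and 1658 CPM of Slfn5 and the 877, 626 and 900.5 CPM of Ifit1bl1 with IFNα alone. Il6 was at 397, 306 and 331 CPM with both agents, above every sample of either single stimulus.

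Immediate-early genes show how far the unstimulated cells were from both stimuli. Fos was at 1326, 1065 and 1415 CPM in unstimulated cells, 9.21, 4.99 and 4.49 with CpG and 5.04, 4.86 and 5.34 with IFNα, and its values with the stimuli overlapped. Junb was at 1905, 1356 and 1716 CPM in unstimulated cells, 100.1, 75.6 and 103 with CpG and 103, 119 and 96.2 with IFNα. Neither was called between CpG and IFNα (0.28 and −0.19). Of the 20 immediate-early genes tested, 4 were higher with CpG (20%, near the share of all genes) and 8 lower (40%; median −0.70), with Atf3 (2.92) higher and Egr3 (−4.697) and Zfp36 (−4.34) lower. Fosl1, a Fos-family gene, had 29 counts with CpG and 1 with IFNα, a ratio of 22.7 with an exact 95% counting interval of 3.77 to 928. For all 8 lower genes of the list the unstimulated mean was above that of both stimuli.

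**Figure D3:**
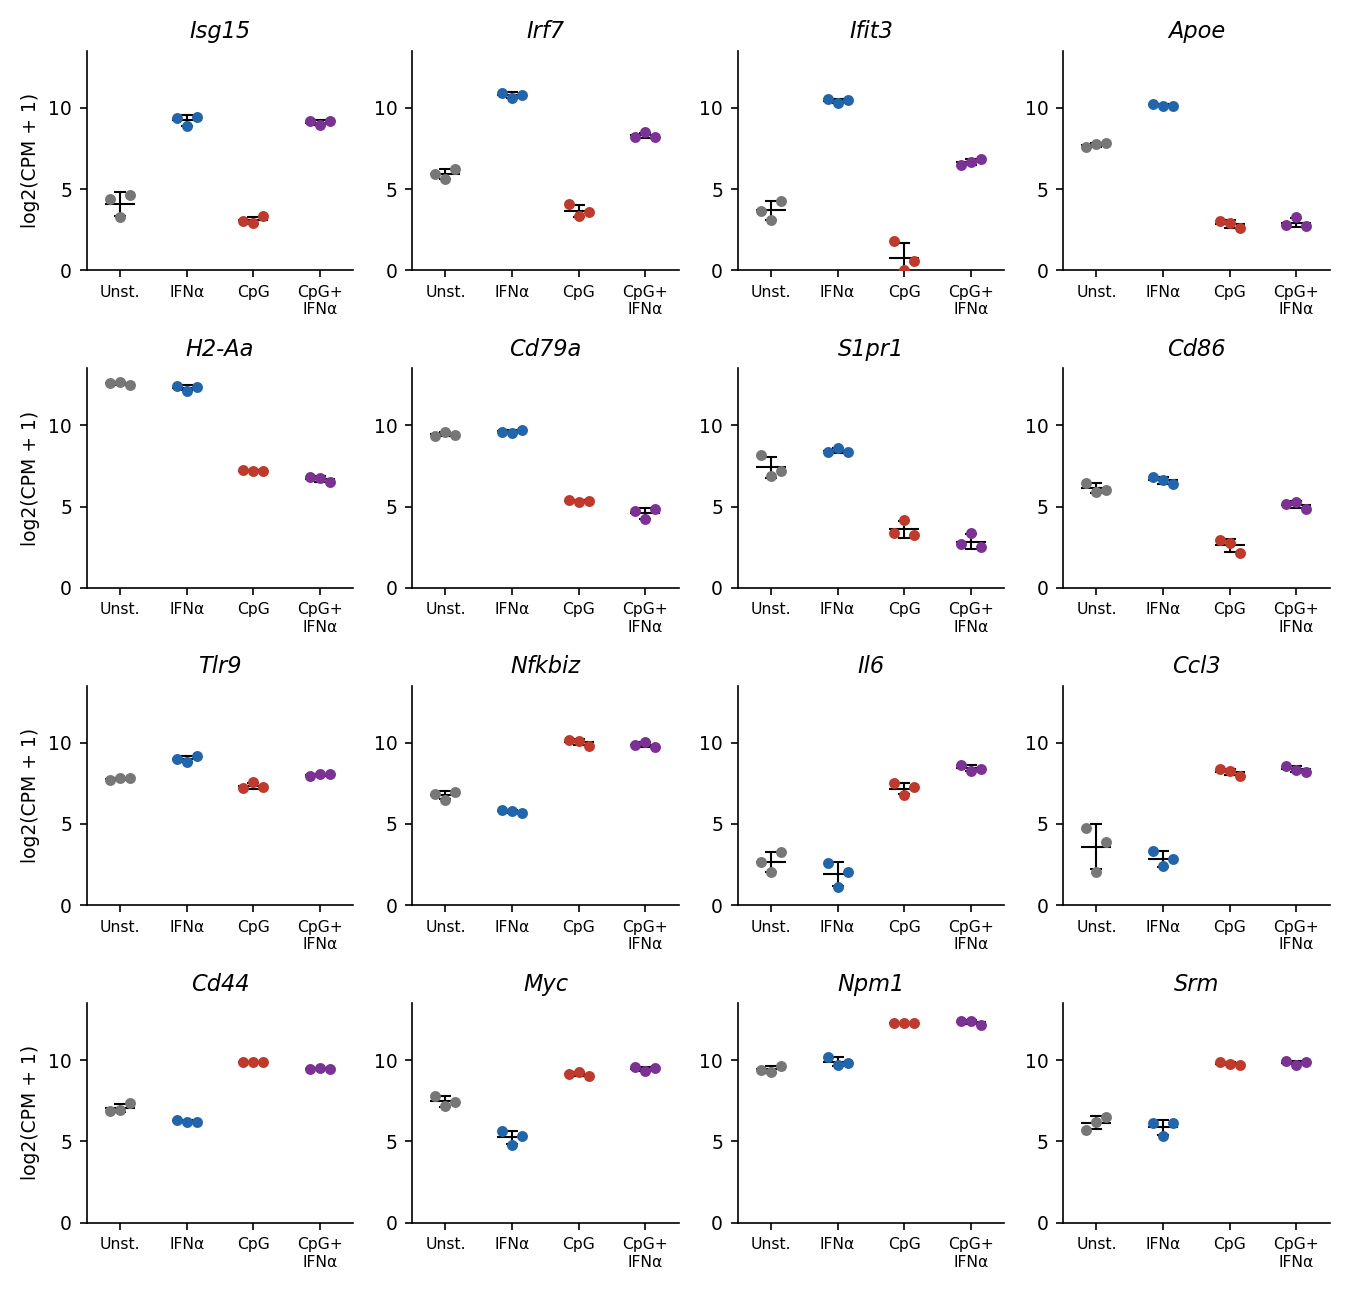
Levels of 16 genes as log2(CPM + 1) in all 12 samples; points are samples, horizontal bars group means and error bars the SD of 3 samples, for unstimulated cells (gray), IFNα (blue), CpG (red) and both agents (purple). Apoe, H2-Aa and Cd79a are low in both groups that received CpG, whereas Isg15 with both agents is at the level of IFNα alone.

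Promoter motifs were counted as a description, without a test, in RefSeq promoters on GRCm38.p6 that run from 250 bases before to 50 bases after the start; 7234 of the 9431 genes had one. The ISRE core GAAANNGAAA, on either strand, was in a promoter of 293 of these genes (4.05%), of 35 of 1418 genes higher with CpG (2.47%) and of 120 of 1762 genes lower with CpG (6.81%). The share was 15.9% (68 of 427) for genes with a log2 fold change below −3, 22.8% (29 of 127) below −5, and 54.5% (18 of 33) in the antiviral list. The κB motif GGGANTTTCC was rare, in 9 of the 1418 higher genes (0.635%), 16 of the 1762 lower genes (0.908%) and 0.511% of all, and in 1.87% (8 of 427) of genes below −3 and 3.15% (4 of 127) below −5. The E-box CACGTG, which Myc and Max can bind, was in 224 of the higher genes (15.8%), 198 of the lower genes (11.2%) and 13% of all genes tested; in the 31 ribosome assembly genes with a promoter it was in 5 (16.1%) and in the 25 nucleotide synthesis genes in 6 (24%). Of 95 genes over 3 in log2 fold change, 1 held an ISRE core (1.05%), 1 a κB motif (1.05%) and 17 an E-box (17.9%). The E-box share was 11.2% (48 of 427) below −3 and 4.72% (6 of 127) below −5. Over all 32851 promoters of the table, the shares with an ISRE core, a κB motif and an E-box in the 300 bases were 3.44%, 0.411% and 7.15%. Counting only the 250 bases before the start, the E-box was in 11.8% of the higher genes, 9.93% of the lower genes and 10.8% of all, and in 1 of the ribosome assembly genes (3.23%), while the ISRE core was in 2.12%, 6.02% and 3.5%. An E-box stretch of each of the named genes Nme1 and Cdk6 is shown as an example; these lie in introns of longer GENCODE M21 models, which for Nme1 include the overlapping Gm20390. Another E-box of Nme1, at positions −18 to −13 from the start of a further transcript, lies in an exon and is not printed.
Nme1, chr11:93968039-93968064 (-), positions −29 to −24 from the start: cttgatacgcCACGTGggctcgcctt
Cdk6, chr5:3343663-3343688 (+), positions −220 to −215 from the start: tctgcggcccCACGTGggtgaacccc

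**Figure D4:**
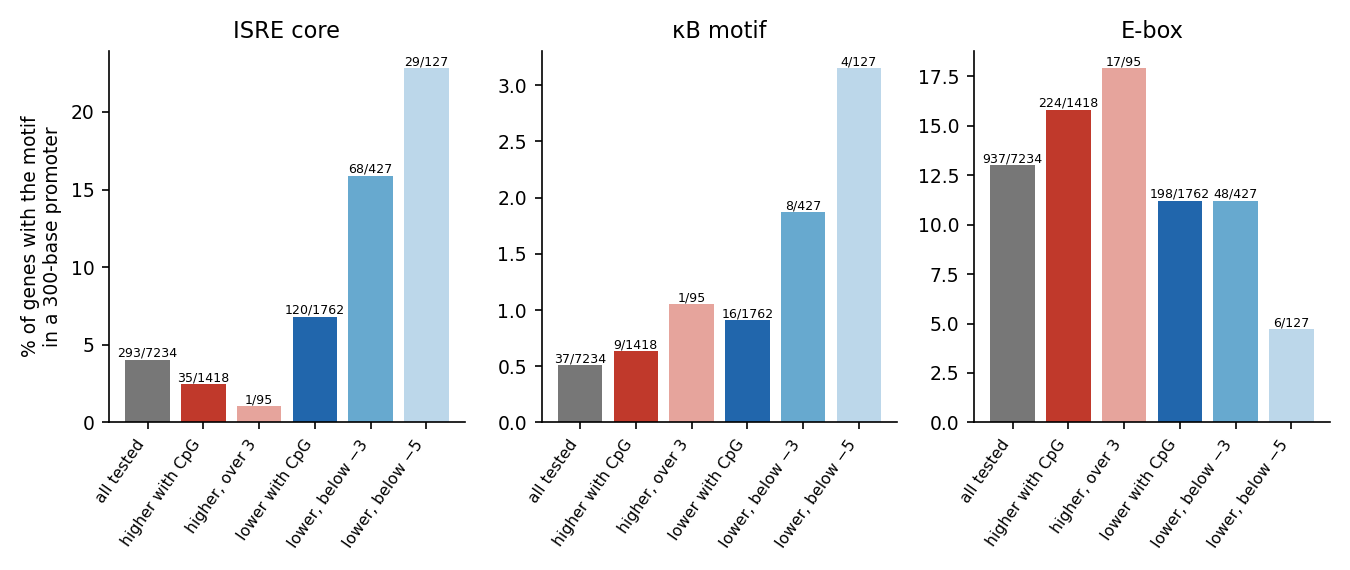
Percent of genes with an ISRE core, κB motif or E-box in a RefSeq promoter, for all genes tested, genes higher with CpG (also with a log2 fold change over 3) and genes lower with CpG (also below −3 and below −5); numbers above the bars are genes with the motif and genes with a promoter, the sets are nested, and the vertical scales differ between panels. The ISRE share climbs from 4.05% of all genes to 22.8% of those below −5, and the κB bars rest on 1 to 37 genes.

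Markers of the sorted cells and of others were checked. All 11 B-cell markers had counts in every sample, and 10 of them were lower with CpG: their summed level was 17872 to 19946 CPM with IFNα, 6422 to 6761 with CpG and 19043 to 21626 in unstimulated cells. T-cell markers summed to 42.6 to 51.9 CPM with IFNα and 4.28 to 9.98 with CpG, with 2 or 3 of the 8 markers detected in a sample and Lck, a kinase gene, the main one with IFNα, while NK-cell markers were at 2.43 CPM or less in all 6 samples. Myeloid markers summed to 204 to 280 CPM with IFNα and 14.5 to 16.4 with CpG. Mpeg1 was most of the sum with IFNα, at 261, 190.3 and 254 CPM, and was at 6.75, 9.27 and 6.99 CPM with CpG and 18.2, 18.2 and 10.6 in unstimulated cells; 4 to 6 of the 11 had any count in a given sample. Erythroid and platelet markers, led by hemoglobin genes, summed to 337, 87.0 and 15.3 CPM in IFNα samples 1, 2 and 3, to 61.4, 18.5 and 4.99 CPM in CpG samples 1, 2 and 3 and to 347, 157 and 57.4 CPM in unstimulated samples 1, 2 and 3. Sample 1 was the highest and sample 3 the lowest in each of these groups, so the ranges of the stimuli overlapped although the CpG sum was lower within each number. Marginal zone B-cell markers, of which the sort should hold few cells, summed to 987 to 1020 CPM with IFNα and 641 to 720 with CpG, with 4 of the 7 tested lower and 1 higher; Mzb1 was the largest part of the sum in all 6 samples, followed by S1pr1 with IFNα and by Plxnd1, the higher member, with CpG (79.8, 95.5 and 109 CPM against 3.03, 1.82 and 6.11 with IFNα). Plasmacytoid dendritic cell markers summed to 3212 to 3730 CPM with IFNα and 3167 to 3654 with CpG, most of it Ly6d, Bst2, Irf8 and Tcf4, which B cells also express, and the defining marker Siglech was at 0 in all 6 samples. Plasma cell markers summed to 544 to 629 CPM with IFNα and 570 to 595 with CpG, most of it Mzb1, which is also in the marginal zone list. Sdc1 was lower with CpG, as given above, and Jchain was at 1.22 CPM or less in all 6 samples. The part of other cells, or of RNA quality, in the differences above was not tested.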

How the data were processed

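BRB-seq, a 3′ RNA-seq method that barcodes samples and molecules, was applied by the authors to sorted splenic FO B cells of 4 groups of 3. Per the labels and the study's methods, reads were handled with UMI-tools 1.1.2, trimmed with Trim Galore 0.6.7, aligned to GRCm38 with HISAT2 2.2.1 and assigned with featureCounts 2.0.1, with the Tlr9 gene model extended downstream. The deposited values are whole-number counts of unique UMIs per gene; 3′ counts do not grow with transcript length. The annotation release is not given in the sources used here.

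Genes were filtered with edgeR's filterByExpr over all 12 samples, scaled by TMM and fitted with edgeR 4.0.16 (R 4.3.3; quasi-likelihood test; 4 groups, 8 residual degrees of freedom), with Benjamini-Hochberg adjustment over the 9431 genes tested. Genes were called DEGs if their adjusted p was below 0.1 and their log2 fold change exceeded 1 in size. Per-sample values are TMM-scaled CPM, and levels for position between groups used log2(CPM + 1). No column of counts was left unmapped. The script was tested on simulated counts.

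Named genes were the 12 with the smallest p in each direction among DEGs without overlap between the stimuli, the 10 with the largest fold change in each direction among DEGs with at least 20 CPM in the higher group, members of the lists described, and Tlr9, Ifnar1 and Ifnar2. The comparison, lists and tests were chosen with earlier results of these data known, so no list is independent evidence. Results for certain genes are not reported here. Promoter sequences came from RefSeq (GRCm38.p6) and gene coordinates from GENCODE M21. Alternatives were other scalings, filters, thresholds, DESeq2 1.42.0, a fit to the 6 samples alone, thinned counts, removal of ribosomal and mitochondrial genes, a replicate block and each sample left out.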

Additional observations from a re-analysis of the deposited data

How the results depend on the processing

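The counts of DEGs between CpG and IFNα stayed within 1.5 times the reported 1826 higher and 2330 lower genes under every alternative but 1, and no gene was called in the opposite direction in any of them. The exception was the threshold itself: at a log2 fold change over 2 there were 520 higher and 1128 lower genes. A test against a fold change of 2 gave 1360 and 1807, DESeq2 gave 1784 and 2357, no filter on low counts gave 2270 and 2937, and counts thinned to the smallest library gave 1622 and 2084. With single samples left out, the counts ran from 1828 to 1979 higher and from 2248 to 2509 lower. The labels give no meaning to the replicate numbers, and the correlations of same-numbered deviations (0.127, 0.0964 and 0.00865) did not all pass 0.1, so the samples were not treated as pairs; all 3 were positive, the erythroid marker sum was highest in sample 1 and lowest in sample 3 of every group, and not every sample correlated best with its own number. A fit with the replicate block gave 1818 and 2323. That block changed no call among the 208 genes named in the report or by the naming rule.

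Over those genes and all alternatives, 3831 of 3938 recomputed values kept their direction and side of the thresholds, 89 lost the call and 18 changed sign. The 18 belonged to 4 genes that were not called, and their cause was not tested; ranges over samples left out also hold values that kept their sign. Irf3 stood at −0.00644 with DESeq2 size factors, −0.0244 with the upper quartile, −0.0299 with at least 10 counts in 3 samples, −0.00587 with DESeq2, −0.0344 with the 6 samples alone, −0.0978 with thinned counts and between −0.0306 and 0.0933 with single samples left out. Max stood at −0.0212, −0.0387, −0.0445, −0.0208 and −0.0488 under the first 5 of these settings and −0.0874 to 0.101 with single samples left out. Fos stood at −0.60 with thinned counts and at −0.0897 to 0.528 with single samples left out, and Ifi27 at −0.44 to 0.17. The median of the plasma cell and secretory list was between −0.00863 (without IFNα sample 2) and 0.197 with single samples left out. Tlr9 lost its call at a log2 fold change over 2, and Ifnar1 there and in the test against a fold change of 2. The number of mitosis genes tested varied with the filter and with thinning.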
